A study of Homo sapiens with 6 samples.

Results

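The TRIM genes encode a family of proteins built from a RING finger, B-box zinc fingers and a coiled coil, and most members act as ubiquitin ligases. Their transcripts were examined in SMAD4-knockout PANC-1 cells, a line from a pancreatic epithelioid carcinoma. Every symbol made of TRIM followed by digits alone was taken, which gave 67 members among 60835 distinct symbols. The other 50 symbols that begin with TRIM were not members. They included antisense transcripts, pseudogenes, readthroughs, copies with a letter suffix and the relatives TRIML1 and TRIML2. Polyadenylated RNA was sequenced on day 3 from cells transfected with R272K SMAD4 (3 libraries) or WT SMAD4 (3 libraries). Both groups carried the knockout of the endogenous gene. R272K replaces an arginine of SMAD4 with lysine. The labels state neither the promoter of the construct nor whether the knockout line was 1 clone. They also leave unsaid whether replicates came from separate cultures, so each p-value reflects the scatter among these libraries alone, which may be technical. Knockout cells without introduced SMAD4 were not analysed here.

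The C-terminal domain sorts TRIM proteins into classes. A PRY-SPRY domain recognises partner proteins, including viral capsids and antibody in some members. PHD and bromodomains read histone marks in the TIF1 members, and NHL repeats bind RNA or protein. Several PRY-SPRY members are induced by interferon and take part in the sensing or restriction of viruses. TRIM33 is a TIF1 member that binds receptor-activated SMADs and has been described as a ubiquitin ligase for SMAD4, the protein that was varied here.

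Library totals lay between 15148435 and 15406781 counts with R272K SMAD4 and between 14776148 and 17706201 with WT SMAD4. SMAD4 transcript stood at 43.3 ± 2.56 CPM in R272K libraries and 88.7 ± 5.13 CPM in WT libraries (SD, n = 3 each), so the amount of SMAD4 transcript and the substitution cannot be told apart in any difference below. CPM scales counts to a common library size, after TMM scaling. WT replicate 1 stood apart on the first principal component, at 31.3 against -15.6 to 9.56 for the other libraries. Several results that move without it are given both ways. The keratins KRT8, KRT18 and KRT19 stood at 127 CPM or more in every library. The epithelial genes KRT7 and EPCAM lay between 2.80 and 5.59 CPM. The leukocyte gene PTPRC stood at 0.270 CPM or less, but 7 leukocyte markers together summed to 2.43 to 3.74 CPM per library. The 4 endothelial markers summed to 5.08 to 7.60 CPM and the 4 fibroblast markers to 0.608 to 2.15 CPM. In the leukocyte and endothelial lists 1 marker each passed the filter on low counts, and in the fibroblast list 0 did.

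Interferon-stimulated response elements are promoter sites through which interferon signalling and IRF factors act. They are shown because TRIM14, the TRIM transcript that passed the test, and several of those next to it in rank carry the core letters near their start. The element was thus chosen with the test results known. TRIM2, which came next by p and lay above 0, carries them as well. TRIM7 had no match, and TRIM11 and TRIM22 had no promoter entry. The search took GAAA, then any 2 bases, then GAAA, on both strands, over the 300 bases from 250 before to 50 after each annotated start (RefSeq, GRCh38.p14). Capitals mark the match or overlapping matches, and the gene strand is printed. TRIM14 lies at chr9:98119173-98119472 (minus strand), TRIM5 at chr11:5685025-5685324 (minus strand), TRIM21 at chr11:4393653-4393952 (minus strand) and TRIM26 at chr6:30213357-30213656 (minus strand).
TRIM14: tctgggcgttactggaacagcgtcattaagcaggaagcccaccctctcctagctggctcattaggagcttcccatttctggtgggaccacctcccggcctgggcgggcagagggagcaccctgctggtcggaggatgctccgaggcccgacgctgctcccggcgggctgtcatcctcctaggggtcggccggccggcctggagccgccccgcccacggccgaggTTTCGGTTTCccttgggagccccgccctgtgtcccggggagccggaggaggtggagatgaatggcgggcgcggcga
TRIM5: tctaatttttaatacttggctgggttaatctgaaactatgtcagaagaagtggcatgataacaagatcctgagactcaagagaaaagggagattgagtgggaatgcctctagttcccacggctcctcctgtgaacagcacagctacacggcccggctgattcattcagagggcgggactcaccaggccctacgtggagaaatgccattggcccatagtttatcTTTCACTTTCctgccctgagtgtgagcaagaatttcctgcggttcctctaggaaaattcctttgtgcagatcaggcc
TRIM21: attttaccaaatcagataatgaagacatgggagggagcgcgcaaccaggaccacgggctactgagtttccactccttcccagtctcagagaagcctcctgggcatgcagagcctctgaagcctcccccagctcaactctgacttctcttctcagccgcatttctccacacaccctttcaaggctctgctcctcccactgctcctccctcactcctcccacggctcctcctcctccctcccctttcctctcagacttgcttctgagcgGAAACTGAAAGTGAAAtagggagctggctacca
TRIM26: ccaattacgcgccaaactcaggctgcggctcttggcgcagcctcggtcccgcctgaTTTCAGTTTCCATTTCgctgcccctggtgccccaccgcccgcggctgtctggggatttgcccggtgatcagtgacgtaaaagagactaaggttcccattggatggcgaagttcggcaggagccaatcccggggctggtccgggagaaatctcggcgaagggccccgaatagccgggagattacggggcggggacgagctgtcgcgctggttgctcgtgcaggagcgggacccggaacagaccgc
Counted from the start, the match covers positions -26 to -17 in TRIM14 and -27 to -18 in TRIM5. TRIM21 has 2 overlapping matches inside the transcript, from base 18 to base 33. The overlapping pair in TRIM26 covers -194 to -179.

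The same letters were found in 5 other members, printed as 30 bases to set the element of interferon-linked members beside that of other classes. They were TRIM34 at chr11:5624901-5624930 (plus strand), TRIM69 at chr15:44736456-44736485 (plus strand), TRIM16 at chr17:15683012-15683041 (minus strand), TRIM44 at chr11:35662730-35662759 (plus strand) and TRIM2 at chr4:153151936-153151965 (plus strand), again with the match in capitals.
TRIM34: gccccaaaaaTTTCACTTTCatttctcagg
TRIM69: ctaatgagggTTTCTCTTTCtcttaagcaa
TRIM16: acagaggtaaGAAATAGAAAtaaagggtcc
TRIM44: tcctgacgggGAAAGGGAAAgtggaaccgg
TRIM2: aataaatagaGAAAAGGAAAtaagccgaag
TRIM2 has 6 annotated starts in the table, and 1 of them holds the match. Of the 53 members with an entry, 9 held it at some start, in 9 of 72 promoters (12.5%), against 1255 of 35116 promoters of all genes (3.57%). Among the interferon-linked members with an entry it was present in 6 of 9. The palindrome GTCTAGAC, a SMAD-binding sequence, was in 0 of the 72 member promoters and in 0.202% of all promoters. A further search took the core of the interferon-gamma activation site (TTC, any 3 bases, GAA). That core was in 12 of 72 member promoters (16.7%), against 7.66% of all promoters. Among the interferon-linked members with an entry it was in 0 of 9. These counts describe letters in fixed windows and show no binding. For the response element they include the members that prompted its choice. No entry was held for TRIM4, TRIM8, TRIM11, TRIM13, TRIM22, TRIM24, TRIM27, TRIM28, TRIM29, TRIM35, TRIM43, TRIM45, TRIM55 and TRIM60.

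Most of the family was expressed, over a wide range of levels. In TPM, a length-scaled level, 34 of the 44 members that could be tested averaged above 10 and 8 averaged between 1 and 10. TRIM28, also called KAP1, is the co-repressor that KRAB zinc-finger proteins recruit to silence retroelements. It was the most abundant member, at 553 ± 33.5 TPM with R272K SMAD4 and 544 ± 6.93 TPM with WT SMAD4 (SD, n = 3 each). TRIM28 alone made up 31.5% to 33.7% of the summed TRIM TPM in R272K libraries and 30.3% to 32.6% in WT libraries. TRIM25, a ligase for the RNA sensor RIG-I, came next with 127 ± 4.24 TPM in R272K and 136 ± 18.5 TPM in WT libraries. After it came TRIM5, a retroviral restriction factor (68.3 and 76.2 TPM), TRIM21, a cytosolic antibody receptor (66.4 and 73.5 TPM), and TRIM26, encoded in the MHC region (62.7 and 68.9 TPM, R272K before WT). Interferon-linked members thus held 4 of the 5 highest levels. All TRIM counts together were 0.246%, 0.247% and 0.250% of the R272K libraries and 0.253%, 0.257% and 0.253% of the WT libraries.

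**Figure D1:**
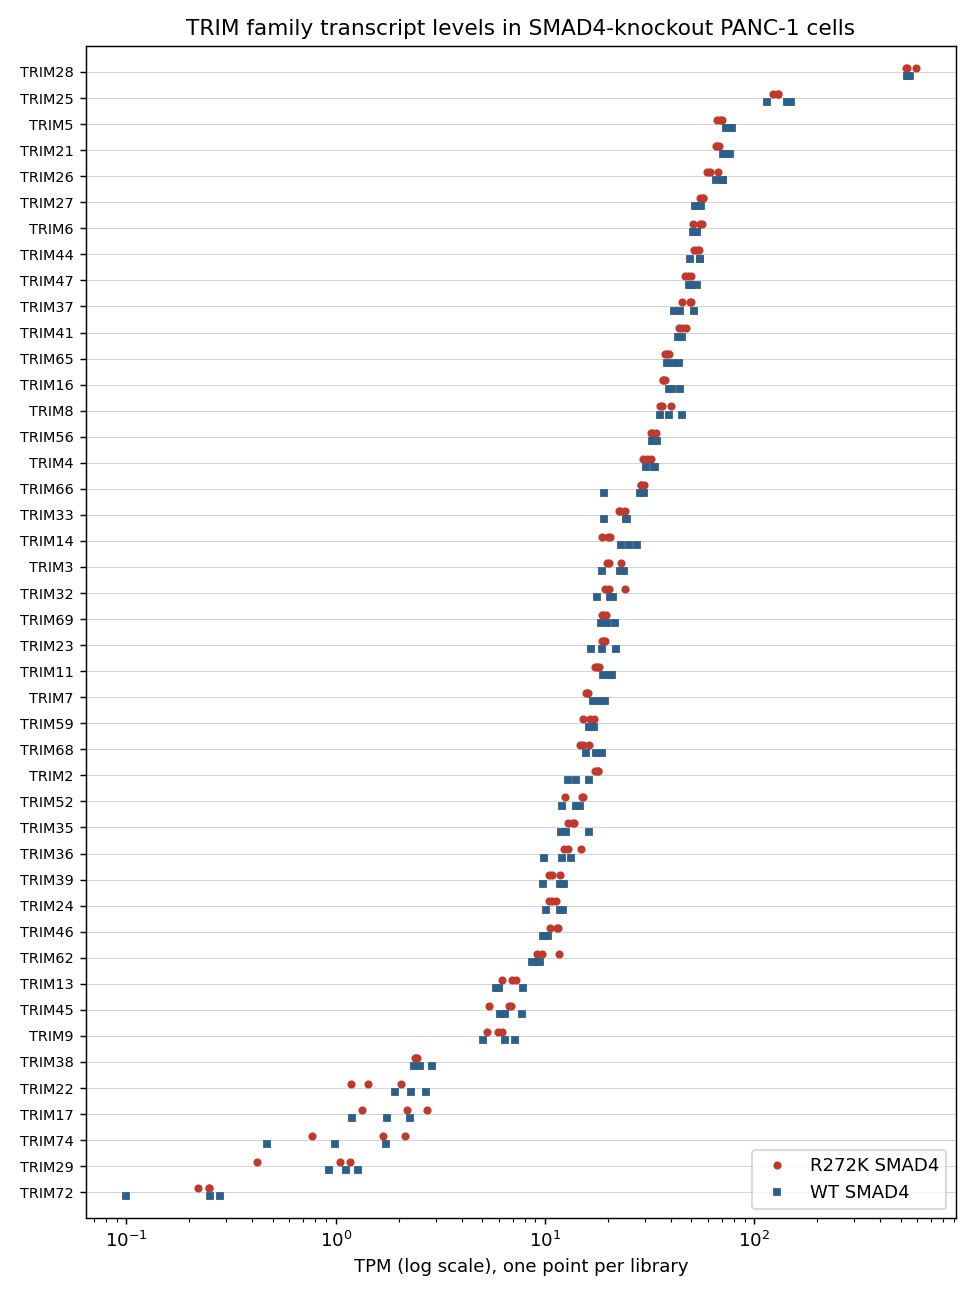
TPM on a log axis for the 44 tested TRIM members, ordered by mean, with one point per library (red circles, R272K SMAD4; blue squares, WT SMAD4). TRIM28 lies above every other member, at a mean of 553 TPM with R272K SMAD4.

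The comparison of R272K with WT SMAD4 asks which transcripts differ with the arginine-to-lysine substitution, in a study of SMAD4 arginine methylation by PRMT1. Of 44 members with a test, TRIM14 alone was called lower and 0 were called higher by edgeR's quasi-likelihood test with Benjamini-Hochberg adjustment over all 15911 genes. That is 2.27% of the members, against 1.21% of all genes called in either direction, 0.528% called lower and 0.685% called higher. At an unadjusted p under 0.05 there were 8 lower (7.09% of all genes) and 1 higher (7.18% of all genes), together 20.5% of members against 14.3% of all genes. The groups did not overlap for 10 members on the lower side (10.4% of all genes) and 2 on the higher side (10.9%), together 27.3% of members against 21.4% of all genes. The median log2 fold change of the tested members was -0.06, with 27 below 0 and 17 above, and over all genes it was -0.0011, with 50.3% below 0. For 37 of the 44 the estimated change was under 15% in either direction. In bulk RNA, fewer cells that express a gene and less RNA per cell cannot be told apart.

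**Figure D2:**
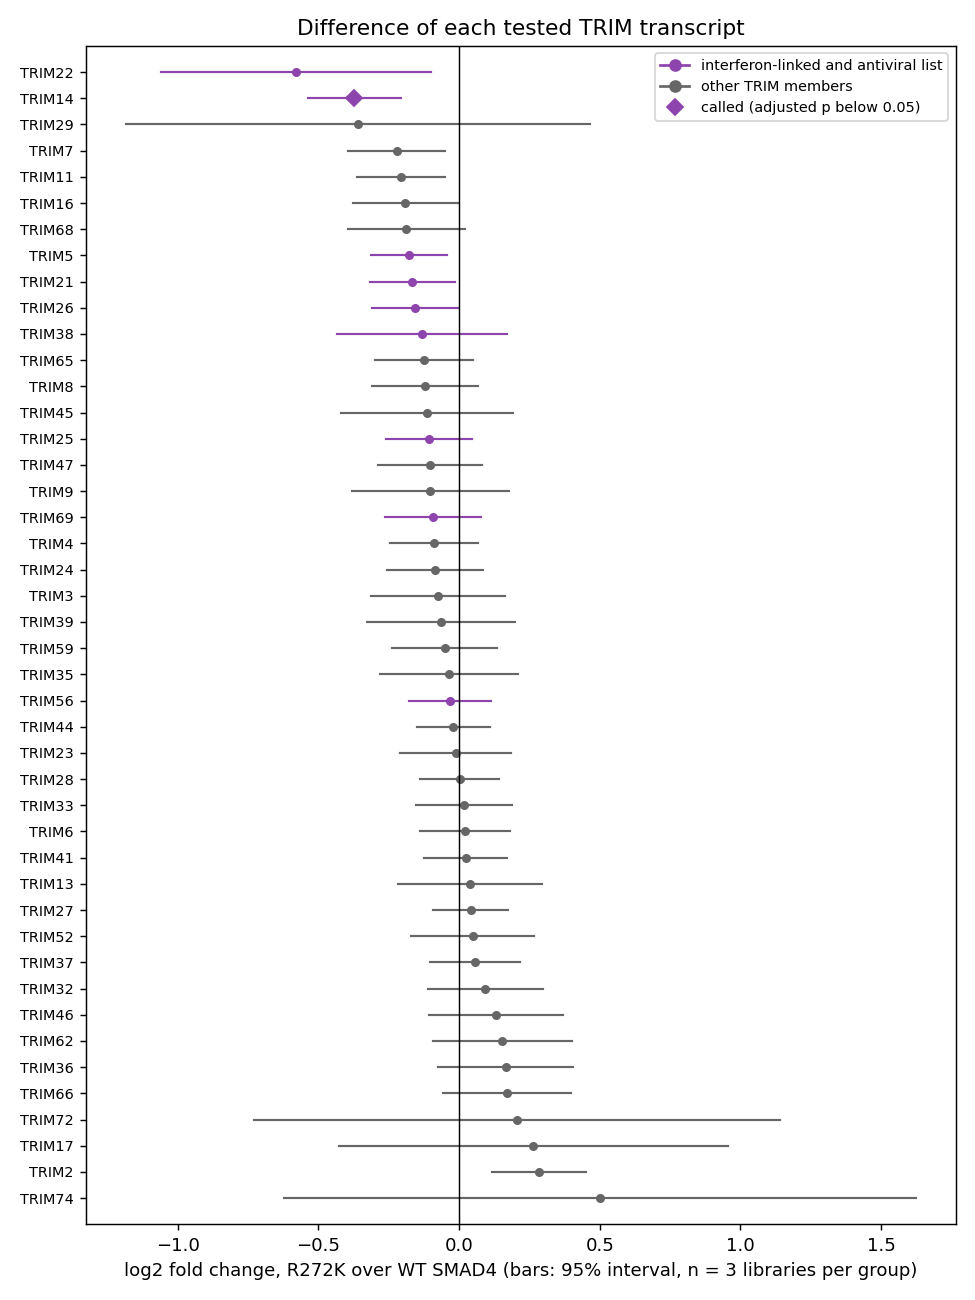
Log2 fold change of R272K over WT SMAD4 for each tested TRIM member, with its 95% interval, from the most negative at the top (purple, interferon-linked list; grey, other members; diamond, called). TRIM14 is the only diamond, at -0.37, and the intervals of 35 members include 0.

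TRIM14, an adaptor that lacks a RING and joins the mitochondrial protein MAVS in antiviral RNA sensing, was the member that fell (ENSG00000106785, chromosome 9, 98069275 to 98119222, minus strand, GRCh38). It stood at 28.4, 26.9 and 28.7 CPM in the R272K libraries, against 35.4, 35.5 and 37.9 CPM in the WT libraries. All 3 R272K values lay below all 3 WT values, and the gap between the groups was wider than the spread inside either. The log2 fold change was -0.37 (SE 0.0767, 95% interval -0.54 to -0.21, edgeR adjusted p = 0.0339), a level 22.7% lower. In 17 other ways of fitting it ran from -0.39 to -0.34. The adjusted p passed without WT replicate 1 (0.00127) but missed without each of the other libraries, from 0.0587 without WT replicate 3 to 0.225 without R272K replicate 2. On the TPM values limma gave an adjusted p of 0.163 with a pseudocount of 1 and 0.164 with 0.1. The gene overlaps NANS on the opposite strand over 13803 bases, and NANS stood at 17.5 ± 0.957 CPM with R272K and 17.5 ± 3.75 CPM with WT SMAD4 (adjusted p = 0.992).

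The interferon-linked and antiviral list, chosen with earlier results of these data known, held TRIM14 and 9 other members, of which 8 could be tested. Besides TRIM14 none was called (1 lower, 0 higher, 8 not called). All 9 tested members had a log2 fold change below 0, from -0.58 to -0.03, with a median of -0.16. In 5 of the 9 the R272K values lay wholly below the WT values, against 10.4% of all genes tested, and 50.3% of all genes were below 0. Without WT replicate 1 the median was -0.15 and 7 of the 9 were below 0, with TRIM38 at 0.01 and TRIM56 at 0.0046. The 35 tested members outside the list had a median of -0.01, with 18 below 0, 17 above and 0 called. At an unadjusted p under 0.05 they numbered 3 lower and 1 higher, and the difference between the list and the remainder was not tested. The list was not a full catalogue of antiviral TRIM genes, and the counts inside and outside it depend on its membership.

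TRIM5 stood at 73.7, 71.2 and 73.9 CPM with R272K SMAD4 and at 84.5, 81.3 and 81.7 CPM with WT SMAD4. Its groups were separate and its replicates close, yet the change of -0.18 (SE 0.0633, edgeR adjusted p = 0.22) did not pass. TRIM22, an interferon-induced restriction factor, had 2.03, 2.46 and 3.45 CPM in R272K libraries and 3.54, 4.60 and 3.80 CPM in WT libraries. The highest R272K value came close to the lowest WT value, and this weakly expressed gene had the most negative estimate among the tested members (-0.58, SE 0.222, adjusted p = 0.253). TRIM22 lies inside the deposited span of TRIM5 on the opposite strand, over 47480 bases. The sources used here do not say whether reads were counted by strand, so reads from one could have been assigned to the other.

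TRIM21 had 40.2, 41.9 and 40.3 CPM with R272K SMAD4, against 46.8, 44.8 and 45.7 CPM with WT SMAD4 (-0.17, SE 0.0696, edgeR adjusted p = 0.296). TRIM26 had 68.9, 75.7 and 65.6 CPM with R272K SMAD4, against 78.4, 78.5 and 77.0 CPM with WT SMAD4 (-0.16, SE 0.0707, adjusted p = 0.343). Neither gene's groups overlapped, and in TRIM26 the R272K libraries were more scattered than the WT ones. TRIM25 stood at 224, 238 and 234 CPM with R272K SMAD4 and at 225, 259 and 266 CPM with WT SMAD4. Here WT replicate 1 lay among the R272K values. With all libraries the change was -0.11 (SE 0.0708, adjusted p = 0.522), whereas without WT replicate 1 it was -0.18 and was called (adjusted p = 0.00696). TRIM25 overlaps DGKE on the opposite strand, and DGKE had its lowest value in WT replicate 1 (29.8 CPM).

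The other 3 tested members of the list were TRIM69, TRIM38 and TRIM56. TRIM69, an interferon-induced inhibitor of vesicular stomatitis virus, averaged 34.3 ± 0.392 CPM with R272K and 36.6 ± 2.70 CPM with WT SMAD4 (-0.09, 95% interval -0.26 to 0.08). TRIM38, which restrains inflammatory signalling, averaged 7.24 ± 0.144 CPM with R272K and 7.89 ± 1.23 CPM with WT SMAD4 (-0.13, interval -0.43 to 0.17). TRIM56, linked to the DNA sensing adaptor STING, averaged 114 ± 4.59 CPM with R272K and 116 ± 6.66 CPM with WT SMAD4 (-0.03, interval -0.18 to 0.11, SD, n = 3 each). The groups of all 3 overlapped. TRIM34, the neighbour and paralog of TRIM5, had 7 counts over the R272K libraries and 8 over the WT libraries and was not tested.

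**Figure D3:**
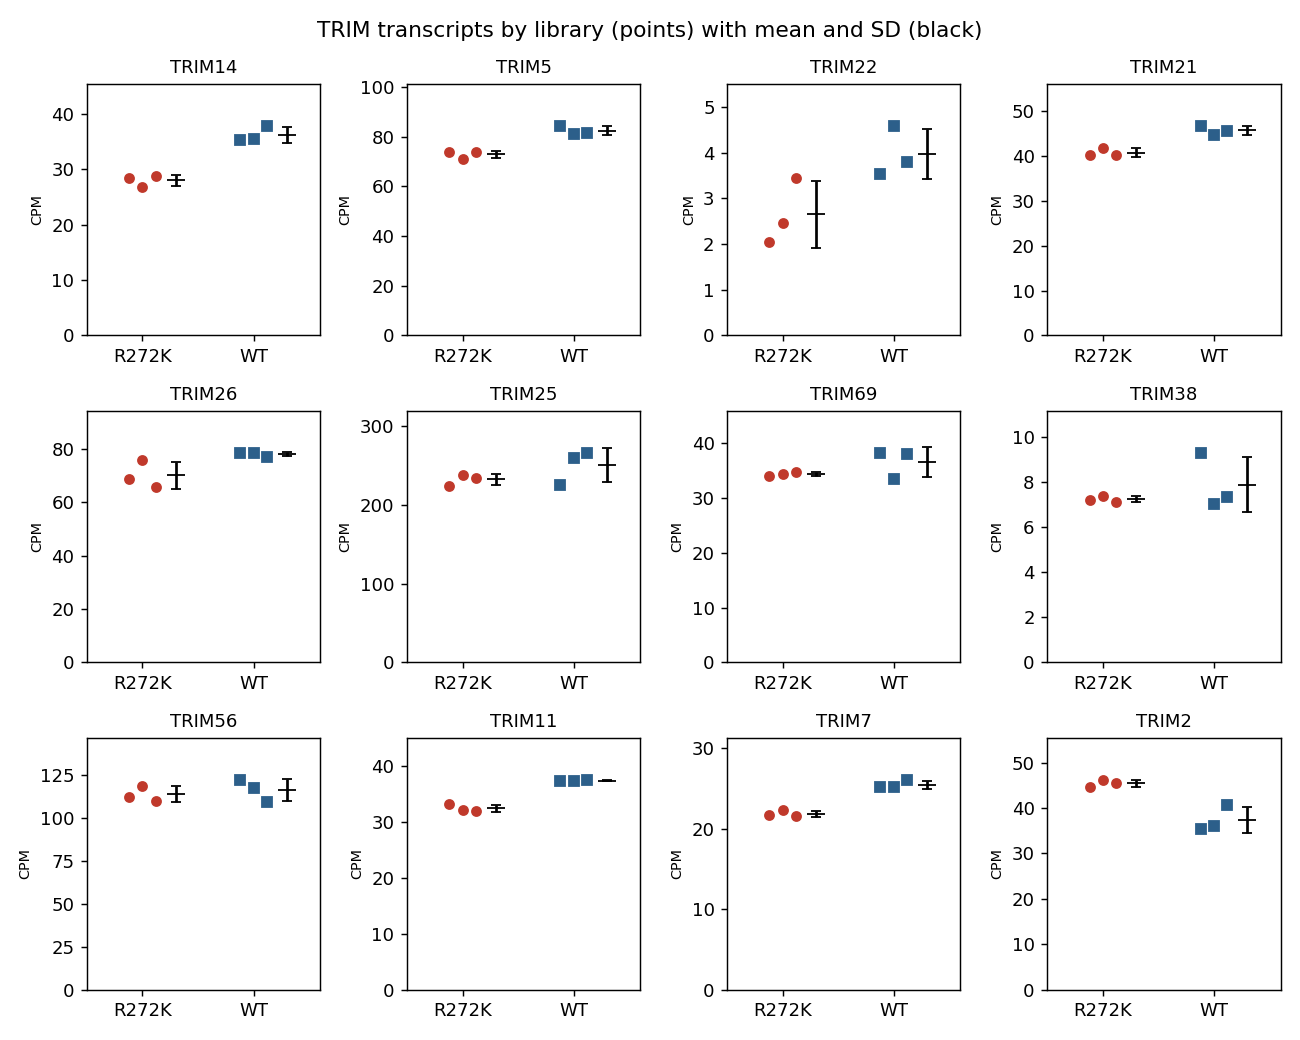
CPM of 12 TRIM transcripts in each library (red, R272K SMAD4; blue, WT SMAD4), with group mean and SD in black and every axis from 0. TRIM14 has 28.7 CPM or less in R272K libraries and 35.4 CPM or more in WT libraries, and TRIM2 is the one shown whose R272K values all lie above its WT values.

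Factors that transmit interferon signals and enzymes that pass ubiquitin to the TRIM ligases were set beside the family. IRF7, an inducer of interferon genes, stood at 14.97 ± 2.04 CPM with R272K and 21.8 ± 2.57 CPM with WT SMAD4 (-0.54, edgeR adjusted p = 0.0487), with every R272K library below every WT library. It was called in 8 of 17 alternatives (adjusted p 0.000239 to 0.281), and missed without any 1 of the R272K libraries or WT replicate 2, in both TPM fits, with upper quartile scaling, with 1 CPM in 3 libraries and with limma-voom. Of the 7 interferon transcription factors tested, 2 were called lower, IRF7 and 1 not named here, and 0 were called higher. Over all genes, 0.528% were called lower. Among the 5 not called were the interferon-responsive factors STAT2 (-0.04, adjusted p = 0.828) and IRF9 (0.03, adjusted p = 0.951). The part of IRF7 in the TRIM values was not tested. Of 15 genes for ubiquitin activation and conjugation edgeR called 0, with 1 at an unadjusted p under 0.05 and a median of -0.03. That gene was UBE2L3, at 125 ± 5.69 CPM with R272K and 143 ± 15.3 CPM with WT SMAD4 (-0.20, adjusted p = 0.272). WT replicate 1 was its high library, at 161 CPM against 134 and 135 CPM in WT replicates 2 and 3.

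The chromatin-bound TIF1 members gave 0 calls among 4 tested, with a median of 0.01. TRIM33 had 64.5, 61.0 and 59.1 CPM with R272K SMAD4, against 54.8, 65.03 and 63.0 CPM with WT SMAD4. The groups overlapped, and the change of 0.02 had a 95% interval of -0.15 to 0.19 (edgeR adjusted p = 0.945). WT replicate 1 held the lowest value, and without it the change was -0.06 (adjusted p = 0.712). TRIM28 had 575, 572 and 624 CPM with R272K SMAD4, against 624, 586 and 559 CPM with WT SMAD4 (0.00, interval -0.14 to 0.14, adjusted p = 0.992). The bromodomain protein gene TRIM24 was not called (-0.08, interval -0.26 to 0.09). TRIM66, a relative best known from testis, had 102, 98.9 and 96.4 CPM with R272K SMAD4, against 70.3, 101 and 93.6 CPM with WT SMAD4. WT replicate 1 was the low library, and the change of 0.17 (adjusted p = 0.498) was 0.03 without it.

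Among the NHL members, TRIM2, a ligase that acts on neurofilament light chain in mouse neurons, had the smallest p of the members above 0. It stood at 44.6, 46.2 and 45.5 CPM with R272K SMAD4, against 35.4, 36.0 and 40.6 CPM with WT SMAD4. The groups were separate, with WT replicate 3 nearest to the R272K libraries (0.28, SE 0.0770, interval 0.12 to 0.45, edgeR adjusted p = 0.109). It was called without WT replicate 1 (0.25, adjusted p = 0.0358) and without WT replicate 3 (0.34, adjusted p = 0.0467), and in none of the other 15 alternatives. Its relatives TRIM32, a ligase for actin and dysbindin (0.09, adjusted p = 0.702), and TRIM3 (-0.07, adjusted p = 0.804) were not called. TRIM71, a stem cell regulator of mRNA known as LIN41, had 17 counts over R272K and 13 over WT libraries and was not tested.

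The PRY-SPRY members without a place in the interferon-linked list gave 0 calls among 14 tested, with a median of -0.05. TRIM11, which promotes removal of misfolded proteins, had 33.1, 32.1 and 31.9 CPM with R272K SMAD4 and 37.3, 37.3 and 37.5 CPM with WT SMAD4 (-0.21, SE 0.0719, edgeR adjusted p = 0.211). TRIM7, a partner of glycogenin, had 21.7, 22.3 and 21.6 CPM with R272K SMAD4 and 25.2, 25.2 and 26.1 CPM with WT SMAD4 (-0.22, SE 0.0806, adjusted p = 0.226). In both genes replicates were tight and the groups apart, but neither passed. TRIM62 stood at 12.3 ± 1.42 CPM with R272K and 11.1 ± 0.181 CPM with WT SMAD4 (0.15, interval -0.09 to 0.40). The abundant members TRIM27 (0.04, adjusted p = 0.805), TRIM41 (0.02, adjusted p = 0.906) and TRIM6 (0.02, adjusted p = 0.919) had overlapping groups. So did TRIM65 (-0.12, adjusted p = 0.521) and the weakly expressed TRIM17 (0.26, adjusted p = 0.759).

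Among the RING-less members, TRIM16, which takes part in autophagy of damaged lysosomes, stood at 40.0, 39.3 and 38.6 CPM with R272K SMAD4 and at 50.6, 43.1 and 40.8 CPM with WT SMAD4. WT replicate 1 was the high library (-0.19, edgeR adjusted p = 0.343), and without it the estimate was -0.09 (adjusted p = 0.556). TRIM16 has a close copy, TRIM16L, so counting could divide reads between them. TRIM44 averaged 218 ± 8.43 CPM with R272K and 221 ± 4.11 CPM with WT SMAD4 (-0.02, interval -0.15 to 0.11). TRIM29, an epithelial gene, was weakly expressed at 0.831 ± 0.380 CPM with R272K and 1.07 ± 0.163 CPM with WT SMAD4, and its interval ran from -1.18 to 0.47.

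Members of the remaining classes gave 0 calls. The microtubule-associated COS-box members TRIM36 (0.17), TRIM46 (0.13) and TRIM9 (-0.10), the membrane-anchored TRIM13 (0.04) and TRIM59 (-0.05), the ARF-domain TRIM23 (-0.01) and the MATH-domain ligase TRIM37 (0.06) all had log2 intervals that include 0. The muscle ring-finger genes were nearly silent, as were 5 skeletal muscle markers, which summed to 0.665 to 0.788 CPM in R272K and 0.270 to 0.917 CPM in WT libraries. TRIM63 had 9 counts over the R272K and 7 over the WT libraries, and TRIM54 had 3 and 7. TRIM55 had 1, 2 and 2 counts in R272K libraries, against 9, 6 and 10 in WT libraries. Its groups did not overlap, but it was too low to be tested.

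In all, 23 members missed the filter on low counts and were not tested, and the largest total among them was 31 counts over the 6 libraries. TRIM10 had 8 counts with R272K and 1 with WT SMAD4. TRIM73 had 15 counts with R272K and 6 with WT SMAD4. It is near-identical to TRIM74, and how reads of the pair were assigned or lost was not tested. TRIM74 stood at 0.660 ± 0.308 CPM with R272K and 0.465 ± 0.274 CPM with WT SMAD4 (interval -0.62 to 1.62). TRIM40, TRIM60, TRIM64 and TRIM75 had 0 counts in every library, which allows up to 0.0321 CPM over the 93450944 counts together, as counting error only. The duplicated genes TRIM43, TRIM48, TRIM49, TRIM51 and TRIM77 had 2 counts or fewer in total each.

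Chromosome 11 below 10 Mb holds 8 members (TRIM3, TRIM5, TRIM6, TRIM21, TRIM22, TRIM34, TRIM66 and TRIM68), of which 7 were tested and 0 were called. Their median was -0.17, with 5 of the 7 below 0, against 50.3% of all genes. In 4 of the 7 (TRIM5, TRIM21, TRIM22 and TRIM68) the R272K values lay wholly below the WT values, against 10.4% of all genes. TRIM5, TRIM21 and TRIM22 were already counted in this way in the interferon-linked list, so the 2 counts are not separate. The tested members outside that list were TRIM3 (-0.07), TRIM6 (0.02), TRIM66 (0.17) and TRIM68 (-0.19). TRIM68 stood at 16.2 ± 0.997 CPM with R272K and 18.5 ± 0.994 CPM with WT SMAD4 (-0.19, edgeR adjusted p = 0.404). TRIM6 in the same stretch, at 58.6 ± 2.85 CPM with R272K and 57.7 ± 3.55 CPM with WT SMAD4, had overlapping groups (SD, n = 3 each). On chromosome 6, 4 of 8 members were tested and 0 were called, with a median of -0.10.

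Relatives that carry other names numbered 17, of which 13 were tested, with 0 lower, 1 higher and 12 not called. RNF207, a RING and B-box protein linked to cardiac repolarisation, stood at 59.2, 56.4 and 53.4 CPM with R272K SMAD4, against 41.5, 45.2 and 45.3 CPM with WT SMAD4. It rose by 0.36 on the log2 scale (SE 0.0744, edgeR adjusted p = 0.0351), with every R272K library above every WT library. It was called in 11 of 17 alternatives (adjusted p 0.0023 to 0.244), and missed without any 1 of the R272K libraries or WT replicate 2 and in both TPM fits. PML, the organiser of nuclear bodies and an interferon-induced gene, stood at 45.4 ± 2.19 CPM with R272K and 49.8 ± 1.43 CPM with WT SMAD4 with separate groups, and was not called (-0.13, adjusted p = 0.429). MID1 (-0.01, adjusted p = 0.965) and MID2 (0.02, adjusted p = 0.926), microtubule-bound members of the COS-box class, were not called.

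Which members were called depended on the libraries used. In the 6 fits that leave out 1 library, members called lower numbered 2 without WT replicate 1 and 0 without any other library. Members called higher numbered 1 without WT replicate 1 or WT replicate 3 and 0 otherwise. Over all genes the share called ran from 0.337% without R272K replicate 3 to 5.36% without WT replicate 1.

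**Figure D4:**
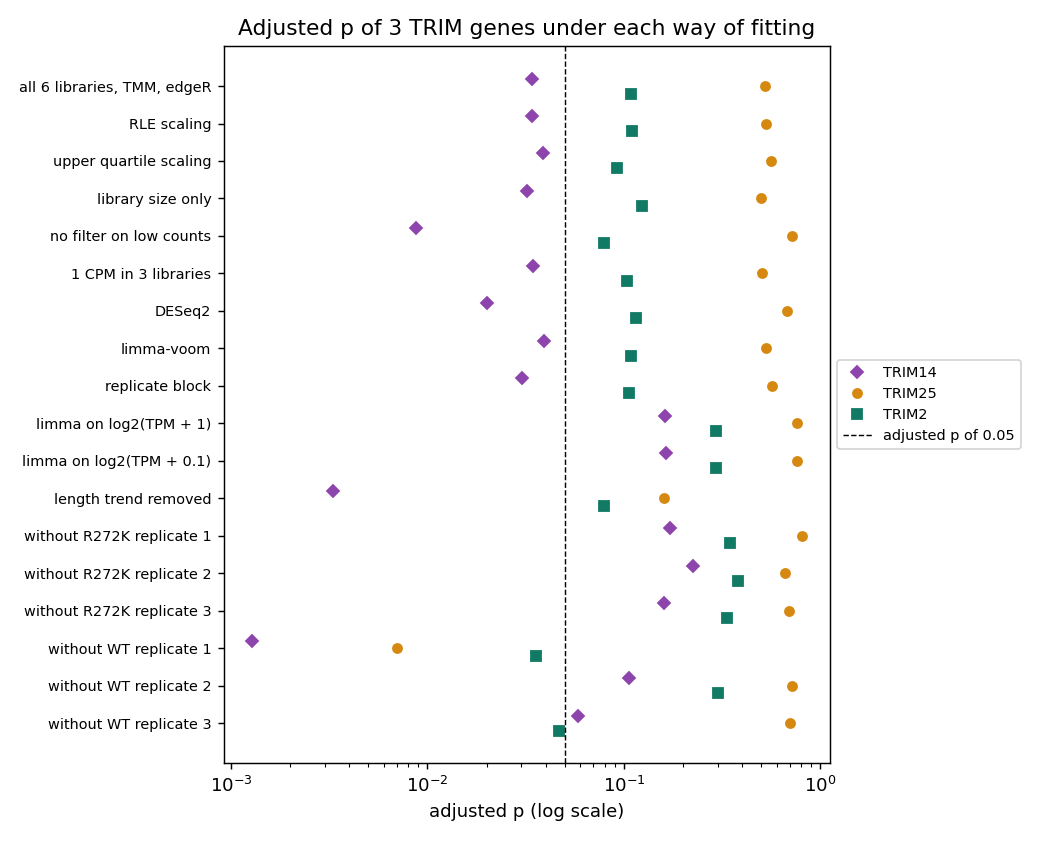
Adjusted p, on a log axis, of TRIM14, TRIM25 and TRIM2 with all 6 libraries and in 17 alternatives, with the dashed line at 0.05. TRIM14 lies left of the line in 10 alternatives, TRIM2 in 2 and TRIM25 in 1.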

How the data were processed

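The submitters' processing notes name fastp 0.23.0 and HISAT2 2.1.0, then SAMtools and HTSeq 0.10.0, with GRCh38; settings, strand and annotation release do not appear in the labels. The table the authors deposited for the tests holds raw counts. Levels came from a second deposited signal table, TPM made by the authors, which sums to 1000000 over distinct symbols. Each table has 62710 lines for 60835 symbols, since 453 symbols repeat, and each symbol entered once. No other per-sample columns were set aside (0).

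R272K was compared with WT over all 6 libraries in edgeR (robust quasi-likelihood, TMM scaling, filterByExpr with a minimum count of 10 and total of 15). The model held group alone, tests were two-sided, and Benjamini-Hochberg adjustment ran over 15911 genes, with calls below 0.05. An SE is the log2 fold change over the square root of F. The scripts were tested on simulated data. Alternatives changed scaling, filter, tool (DESeq2, limma-voom, limma on log2 TPM with a pseudocount of 1 or of 0.1), brought in a replicate block or a length correction, or left out 1 library.

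Members and role lists were chosen with earlier results of these data known. Named genes were called members, the interferon-linked and TIF1 lists, and up to 10 tested members by smallest p in each direction. They also included the 8 most abundant, the 4 nearest to the threshold, and up to 4 genes by smallest p of each other list. SMAD4 and pairs that may share reads were named too. The rest were chosen after their values were seen. Some results of these lists are not reported here. Software was edgeR 4.0.16, DESeq2 1.42.0 and limma 3.58.1 in R 4.3.3, and pandas 2.3.3, matplotlib 3.10.9 and numpy 2.4.6 in Python 3.11.15.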

Additional observations from a re-analysis of the deposited data

How the results depend on the processing

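TRIM14 was called by DESeq2, limma-voom, every other scaling and filter tried, and the fit with the length trend removed; limma on log2(TPM + 1) and on log2(TPM + 0.1) called 0 members lower. With 1 library left out, members called lower numbered 0 to 2 and called higher 0 to 1. The median log2 fold change of tested members, -0.06, was -0.0375 with no filter on low counts, -0.0695 with 1 CPM in 3 libraries, -0.0303 with log2(TPM + 1), -0.0322 with log2(TPM + 0.1), -0.0726 with the length trend removed, and -0.0664 to -0.0302 with 1 library left out. SMAD4 was called in all 17 alternatives. The labels do not say whether replicate numbers pair the libraries. Deviations from the group means of same-numbered libraries correlated at -0.0650, -0.00715 and -0.0120. Those of differently numbered libraries correlated at -0.0599 to 0.0726. These values show no visible shared effect but cannot settle how the libraries were prepared. With the replicate block the member median was -0.05 and 262 genes were called in place of 193, TRIM14 among them (adjusted p = 0.0303). Over all genes 875 were called without WT replicate 1 and 55 without R272K replicate 3, 618 with the length trend removed, 474 with no filter, 279 by DESeq2, and 104 and 101 by limma on the TPM scales. The cause was not tested. Members with only a few counts could not be assessed at this depth.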

Other observations

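Symbols outside the family rule that begin with TRIM were mostly silent. TRIML2, a PRY-SPRY relative, stood at 47.3 ± 2.76 CPM with R272K and 49.2 ± 4.46 CPM with WT SMAD4 (SD, n = 3 each). TRIM16L stood at 7.34 ± 0.767 CPM with R272K and 8.29 ± 1.27 CPM with WT SMAD4. The divergent transcript TRIM8-DT (4.61 ± 0.348 CPM with R272K and 5.09 ± 0.952 CPM with WT SMAD4) and the antisense transcript TRIM52-AS1 (4.43 ± 1.45 CPM with R272K and 5.24 ± 1.35 CPM with WT SMAD4) were not called by edgeR's quasi-likelihood test (adjusted p = 0.735 and adjusted p = 0.683). MEFV, the gene for pyrin and best known from granulocytes, was detected at 2.90 ± 0.404 CPM with R272K and 2.57 ± 0.502 CPM with WT SMAD4 in these carcinoma cells.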
